A study of Mus musculus with 6 samples.

Results

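The sugar, ion and phosphate solute carriers are the membrane proteins that move glucose, fructose, sodium, protons, bicarbonate, chloride, sulfate and phosphate across the gut epithelium. They were chosen by gene symbol alone, as every symbol that begins with Slc2a, Slc4a, Slc5a, Slc8a, Slc9a, Slc12a, Slc20a, Slc26a or Slc34a and a number. That gave 70 genes of the 18193 that carried a single symbol on the array, each read from its probe set with the highest mean. The pattern also takes in 4 genes that encode no carrier, the scaffold genes Slc9a3r1 and Slc9a3r2, the adaptor gene Slc4a1ap and the pseudogene Slc2a4rg-ps. Of the 70, 33 had a mean log2 intensity of at least 4 over all arrays and are called expressed here.

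RNA came from crypt epithelium of the jejunum, the middle small intestine, of C57BL/6 mice at 3 months of age. The mutants were 3 Sox9-deficient mice (KO 1 to KO 3), and the controls were 3 wild-type littermates (WT 1 to WT 3), with 1 array per mouse. The sources used here do not state the Sox9 allele, the driver of its deletion, the sex of the mice or which of them shared a litter. The study asked which genes are regulated by Sox9, a transcription factor of the crypt base. On the Sox9 probe set where the groups parted, KO arrays read 2.44, 2.75 and 2.42 and WT arrays 7.61, 5.96 and 5.84. Another Sox9 probe set read 5.33 to 6.34 in KO and 2.68 to 6.23 in WT, and the third lay under the filter at 3.21 and 3.31 on average.

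In the small intestine, glucose enters the enterocyte with sodium through SGLT1 (Slc5a1), fructose enters through GLUT5 (Slc2a5), and both leave toward the blood through GLUT2 (Slc2a2). Sodium and chloride are absorbed by the paired work of sodium-proton exchangers of the Slc9 family and anion exchangers of the Slc26 family. Crypt cells secrete chloride that enters through NKCC1 (Slc12a2) and leaves through the channel CFTR. Phosphate is taken up with sodium by NaPi-IIb (Slc34a2). Most of the absorptive carriers are known as genes of the villus rather than of the crypt.

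Markers matched epithelium with some lymphoid cells. All 5 pan-epithelial genes and all 4 crypt base genes were above the filter, as were all 9 villus enterocyte genes measured and 8 of 9 leukocyte genes. Of the stromal genes 1 of 7 passed (Vim), and none of 3 endothelial, 2 neural and 2 erythroid genes did. The summed signal of the villus list ran from 18.05 to 18.36 in KO and from 17.82 to 18.27 in WT on the log2 scale. The sums of 3 lists did not overlap between the groups. The summed Paneth cell signal was 16.74 to 17.17 in KO and 17.37 to 17.68 in WT, and all 4 genes were above the filter. Lyz1, Itln1 and Mmp7 were lower in KO without overlap. Ang4 overlapped between the groups, at 14.61 to 14.97 in KO and 14.14 to 15.27 in WT. The summed duodenal and gastric signal was 8.28 to 8.66 in KO and 5.73 to 5.87 in WT, where Cblif, the gastric intrinsic factor gene, was the 1 gene of 5 above the filter. Cybrd1, the duodenal iron reductase gene of that list, went the other way, at 3.02, 3.47 and 3.13 in KO and 4.56, 4.71 and 4.91 in WT, and Gkn1 stayed near background. The summed colonic signal was 13.22 to 13.36 in KO and 13.00 to 13.10 in WT, with 3 of 5 genes above the filter and Car1 and Hoxb13 near background. That sum was mostly Car4, at 13.13 to 13.31 in KO and 12.91 to 13.05 in WT. Mettl7b overlapped between the groups, and Aqp8 read 3.56 to 3.71 in WT, under the filter. The part of these 3 lists in the carrier values was not tested.

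Some arrays stood apart. Y-linked signal was present on WT 1 (7.59) and WT 2 (8.19) and at 2.64 to 2.74 on the other 4, which carried Xist at 9.25 to 11.06, so sex was not balanced between the groups. KO 2 alone carried Pdx1, a transcription factor of the duodenum, at 7.5 against 2.62 to 2.76 elsewhere. WT 3 had the highest Fabp6, an ileal bile acid-binding protein (9.65 against 4.56 to 6.42), and the largest difference between 3' and 5' Gapdh signal (1.75 against 0.37 to 0.91), and WT 1 the lowest Ptprc, a leukocyte gene (5.73 against 8.5 to 9.53).

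None of the 33 expressed genes, 30 of them carriers, passed the test between Sox9-deficient and control crypts. Over the whole array 0.011% of the 18108 probe sets tested passed (limma, adjusted p under 0.05), 3.62% had an unadjusted p under 0.05, and 3 of the 33 genes did. In 21 of the 33 the KO minus WT difference was under 0.25 log2 units in size, and the median was -0.02 against 0.03 over all probe sets tested. Of the 33, 15 were positive and 18 negative, where 46.1% of all probe sets were negative. In 3 genes (Slc5a8, Slc34a2 and Slc5a9) the difference was over 2-fold, as in 2.97% of all probe sets. The 95% interval lay within a 2-fold change either way for 13 genes, and for the rest a change of 2-fold or more lay inside the interval with 3 mice per group. The KO and WT arrays did not overlap for 5 of the 33 genes (15.2%), Slc26a11, Slc4a1ap and Slc12a9 higher and Slc5a9 and Slc5a8 lower in KO, against 9.12% of all probe sets tested (5.09% higher and 4.03% lower). Slc5a8 was above the filter only through 2 control arrays, so it had to differ, and its KO arrays and WT 3 all lay at background. Slc26a11 in turn passed the filter through the KO group (mean 4.41 in KO and 3.71 in WT). The count was 8 of 33 without KO 2 or without WT 2, where 15.8% and 16.1% of all probe sets did not overlap. It was 7 without KO 1 (24.1% of all), and 6 without KO 3 (17.2%), WT 1 (20.4%) or WT 3 (18.4%). Because the tissue was profiled in bulk, fewer cells of a type and less RNA per cell cannot be told apart.

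**Figure D1:**
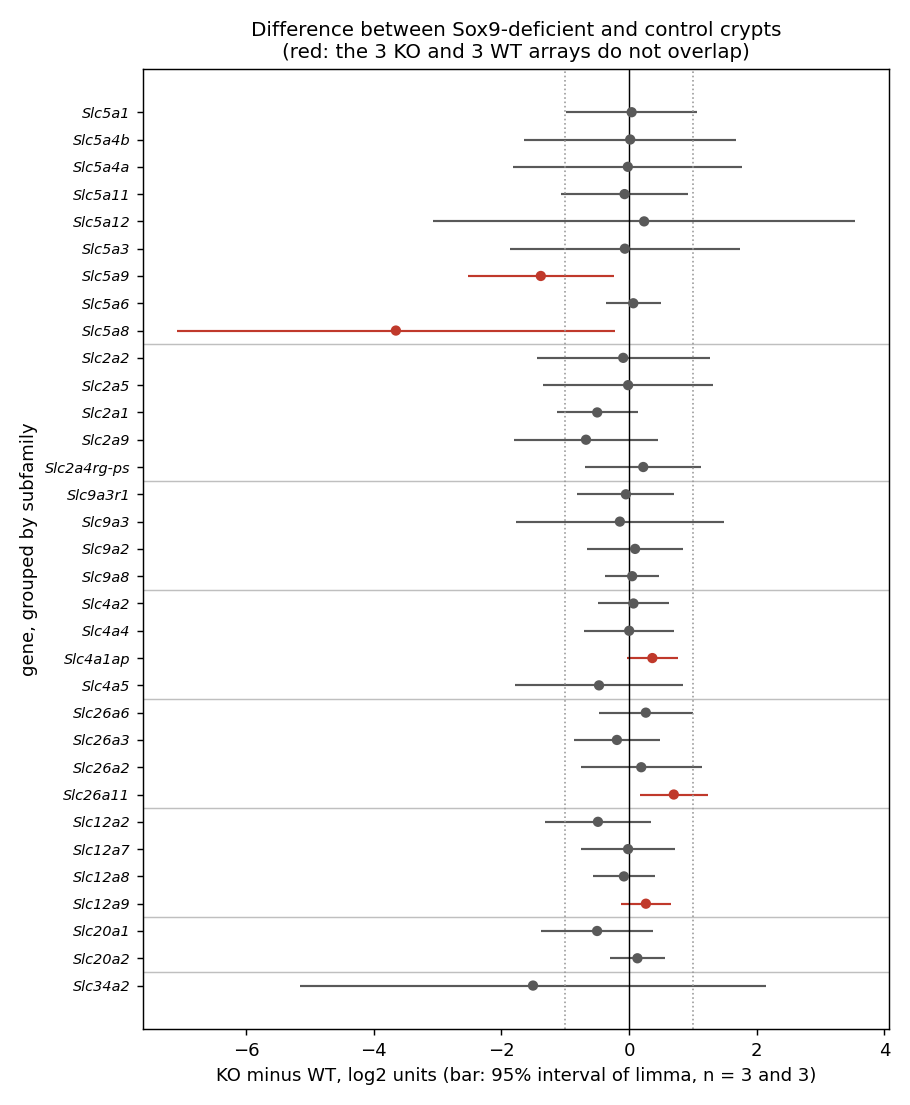
Difference between Sox9-deficient and control crypts for the 33 expressed genes, on the log2 scale, with bars for the 95% interval of the limma fit (3 mice per group) and dotted lines at a 2-fold change. The intervals of Slc5a8, Slc5a9 and Slc26a11 leave out 0, though no adjusted p passed, and red marks the 5 genes whose arrays did not overlap between the groups.

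Glucose and fructose uptake genes read alike in both groups on average and varied widely between mice. Slc5a1, the sodium-glucose carrier of the brush border, read 13.08, 13.99 and 14.27 in the mutants (in the order KO 1, KO 2, KO 3, kept throughout) and 13.07, 14.32 and 13.83 in the controls (WT 1, WT 2, WT 3). The groups overlapped, with KO 1 and WT 1 the lowest, and the difference was 0.04 ± 0.43 (SE; limma adjusted p = 0.999; 95% interval -0.98 to 1.06). The other tested probe set of Slc5a1 gave -0.24, with overlapping groups. Slc2a2, the basolateral glucose carrier, showed the same pair of low mice, at 10.85, 12.31 and 11.46 in KO and 10.65, 12.58 and 11.68 in WT (difference -0.09, interval -1.45 to 1.26). Slc2a5, the fructose carrier, read 9.21, 8.65 and 9.23 in KO and 7.83, 10.10 and 9.22 in WT (difference -0.02, interval -1.35 to 1.32). The controls WT 1 and WT 2 held its lowest and highest values, so its spread lay within the control group.

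Slc5a4a and Slc5a4b encode the SGLT3 proteins, relatives of SGLT1 known for sensing glucose rather than carrying it. Slc5a4a read 8.91, 8.09 and 9.36 in KO and 7.08, 9.58 and 9.76 in WT, and Slc5a4b read 9.72, 9.10 and 10.80 in KO and 8.43, 10.47 and 10.67 in WT. In each of them WT 1 was lowest and KO 2 next, and the differences were -0.02 ± 0.75 and 0.02 ± 0.69 (SE). On the 4 arrays without Y-linked signal, KO minus WT 3 was -0.97 for Slc5a4a and -0.80 for Slc5a4b. They are close paralogs, and whether each probe set reads its own gene only was not tested. Slc5a12, which encodes a low-affinity sodium carrier for lactate and other monocarboxylates, had the same 2 lowest mice over a wider range. It read 8.05, 6.43 and 10.25 in KO and 5.27, 9.17 and 9.58 in WT (difference 0.23 ± 1.38, SE; 95% interval -3.08 to 3.54), and its other tested probe set ran from 3.85 on WT 1 to 9.40 on KO 3. The inositol carrier gene Slc5a11 was lowest on WT 1 too (7.89, with 8.16 to 9.33 on the others; difference -0.07).

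The RefSeq promoter sequences (GRCm38.p6) of the SGLT3 pair are shown because both genes were lowest on WT 1 and next lowest on KO 2, and those of Slc5a8 and Slc34a2 because single mice parted by over 4 log2 units there. Each is the 250 bases before the gene's start, on the gene's strand. They lie at chr10:76147201-76147450 (Slc5a4a, plus strand), chr10:76111019-76111268 (Slc5a4b, minus strand), chr10:88885742-88885991 (Slc5a8, plus strand) and chr5:53049103-53049352 (Slc34a2, plus strand). Capitals mark TTTAT, the core of the site of the intestinal factor CDX2, and the promoter pattern TATANA, each searched on both strands. The TTTAT match in Slc5a8 and the TATANA match in Slc5a4a are on the opposite strand, so their capitals hold the reverse complement. In Slc34a2 TATANA matched on both strands. The 2 patterns overlap in Slc5a4a, and they were picked after the sequences had been seen.
Slc5a4a: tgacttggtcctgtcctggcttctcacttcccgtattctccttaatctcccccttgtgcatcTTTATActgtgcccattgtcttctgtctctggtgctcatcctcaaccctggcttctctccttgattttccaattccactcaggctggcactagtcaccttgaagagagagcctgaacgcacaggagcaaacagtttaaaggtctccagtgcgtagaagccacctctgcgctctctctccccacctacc
Slc5a4b: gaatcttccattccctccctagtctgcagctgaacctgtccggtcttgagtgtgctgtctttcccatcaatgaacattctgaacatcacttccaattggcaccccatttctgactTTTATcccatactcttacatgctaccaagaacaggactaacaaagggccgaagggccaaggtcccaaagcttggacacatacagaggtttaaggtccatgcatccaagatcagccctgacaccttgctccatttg
Slc5a8: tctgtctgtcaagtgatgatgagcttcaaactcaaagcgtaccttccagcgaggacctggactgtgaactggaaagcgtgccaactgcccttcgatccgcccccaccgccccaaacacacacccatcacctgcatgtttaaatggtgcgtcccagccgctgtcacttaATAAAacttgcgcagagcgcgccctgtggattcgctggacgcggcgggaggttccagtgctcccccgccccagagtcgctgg
Slc34a2: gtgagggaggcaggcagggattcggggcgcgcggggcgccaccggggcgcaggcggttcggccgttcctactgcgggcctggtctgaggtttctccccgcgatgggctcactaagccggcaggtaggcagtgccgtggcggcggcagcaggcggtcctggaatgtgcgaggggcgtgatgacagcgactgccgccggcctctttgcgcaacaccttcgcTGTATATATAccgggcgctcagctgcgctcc
The CDX core was in 3 of the 4 promoters and in 37.3% of the 32851 promoters of this length, and the pattern TATANA in 2 of the 4 and in 22.6%. The SOX core AACAAT, searched on both strands too, was in none of the 4 and in 9.42% of all, and the HNF1 core GTTAAT in none of the 4 and in 6.43%. These 4 were chosen. Over all 32 promoters of the 25 expressed genes in the table the CDX core was in 9 (28.1%), the pattern TATANA in 5 (15.6%), the SOX core in 1 (3.12%) and the HNF1 core in 2 (6.25%). Of the 70 genes, 54 had a promoter in the table, 25 of them expressed.

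Among the sodium-coupled carriers, Slc5a8 and Slc5a9 had the smallest p. Slc5a8, which carries short-chain fatty acids and lactate with sodium, read 2.73, 2.71 and 2.93 in KO and 7.11, 9.23 and 3.00 in WT. Signal was thus present on WT 1 and WT 2 only, and WT 3 lay at background with the mutants, so the order of those 4 values carries no information. The difference of -3.65 ± 1.43 (SE) missed the test (limma adjusted p = 0.999), and ran from -5.38 without WT 3 to -2.26 without WT 2. WT 1 and WT 2 are the 2 arrays with Y-linked signal. The 4 arrays without it were all at background for Slc5a8. The fit of all 6 arrays that took the Y-linked signal as a covariate, chosen after the data were seen, gave -0.13. No KO array carried that signal, so this covariate sets the mutants mainly against WT 3, here and wherever it is used below. For Slc5a8, sex and genotype cannot be told apart.

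Slc5a9 encodes a sodium-coupled carrier for mannose and glucose. It read 5.23, 4.0 and 5.18 in KO and 5.70, 7.02 and 5.84 in WT, so the groups parted by a narrow margin between KO 1 and WT 1. The difference was -1.38 ± 0.48 (SE; limma adjusted p = 0.999, unadjusted 0.0247; exact permutation p = 0.1), or -0.98 without KO 2, -0.97 without WT 2 and -0.96 once Y-linked signal was a covariate. WT 3, without Y-linked signal, lay 1.04 above the KO mean. Its other 2 tested probe sets gave -0.64 and -0.39, with overlapping groups. Of the other Slc5 genes, the inositol carrier gene Slc5a3 and the vitamin carrier gene Slc5a6, differed by -0.07 and 0.07. Slc5a3 was low on KO 1 (4.89 against 5.94 to 7.71 elsewhere), and Slc5a6 stayed between 5.21 and 5.58 on all 6 arrays.

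**Figure D2:**
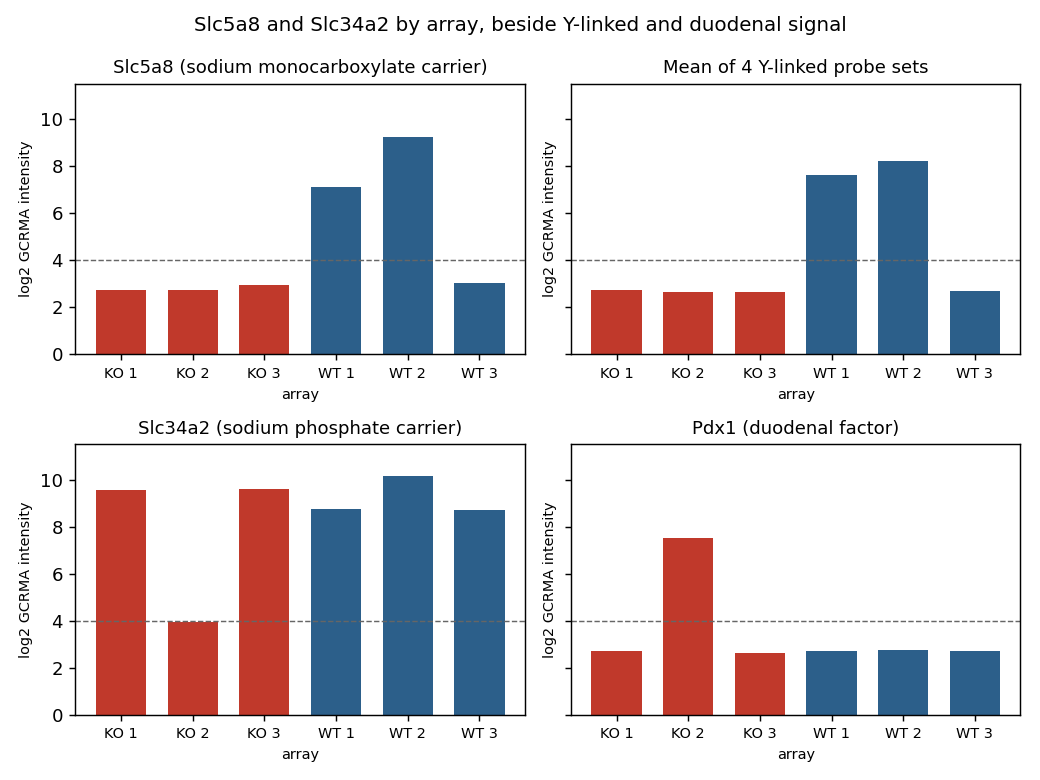
Bars give the log2 GCRMA intensity of each array (red KO, blue WT, 1 mouse each, dashed line at the filter of 4) for Slc5a8, the mean of 4 Y-linked probe sets, Slc34a2 and Pdx1. Slc5a8 and the Y-linked signal were high on WT 1 and WT 2 only, and KO 2 was the one array with low Slc34a2 (3.93) and high Pdx1 (7.5).

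Of the other Slc2 genes, Slc2a1, which encodes the glucose carrier GLUT1 that most cells use, differed by -0.50 ± 0.26 (SE; 95% interval -1.13 to 0.13; limma adjusted p = 0.999). It read 9.14, 8.39 and 8.49 in KO and 9.25, 9.37 and 8.88 in WT, and only KO 1 reached into the control range. Its other tested probe sets gave -0.41 and -0.30, the last with every KO array (6.57 to 6.77) below every WT array (6.80 to 7.04). Y-linked signal as a covariate made the difference of Slc2a1 -0.20. The urate carrier gene Slc2a9 differed by -0.68 ± 0.47 (SE), at 4.99, 4.61 and 5.25 in KO and 5.14, 6.70 and 5.04 in WT, where WT 2 alone stood above the rest (difference -0.14 without it). The pseudogene Slc2a4rg-ps differed by 0.22.

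Sodium-proton exchange genes differed little on average, though some of these values moved once Y-linked signal was a covariate. Slc9a3, the NHE3 exchanger of the brush border, read 9.09, 10.74 and 10.85 in KO and 10.01, 11.60 and 9.51 in WT (difference -0.15 ± 0.68, SE). The groups overlapped, and the difference ran from -0.58 without WT 3 to 0.47 without WT 2, with 0.78 under that covariate and -0.70 with the Gapdh difference as one. Slc9a2, another brush border exchanger, differed by 0.09 (0.45 under that covariate, and 0.40 on the 4 arrays without Y-linked signal) and the endosomal and apical exchanger gene Slc9a8 by 0.05. Slc9a3r1 encodes NHERF1, the scaffold that holds NHE3 at the brush border. Its arrays stayed between 12.57 and 13.54, with a difference of -0.05 (interval -0.81 to 0.71).

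For bicarbonate transport, the basolateral exchanger gene Slc4a2 and the sodium-bicarbonate cotransporter gene Slc4a4 differed by 0.07 and 0.00, with intervals of -0.48 to 0.62 and -0.70 to 0.70. The other tested probe sets of Slc4a4 gave -0.10, -0.17 and -0.33, with overlapping groups. Slc4a5, a further sodium-bicarbonate cotransporter, read 5.51, 6.87 and 5.46 in KO and 5.50, 7.20 and 6.56 in WT (difference -0.47 ± 0.55, SE). Slc4a1ap, which encodes an adaptor named for the anion exchanger gene Slc4a1, read 7.61, 7.49 and 7.69 in KO and 7.21, 7.14 and 7.34 in WT. Every KO array lay above every WT array, by a difference of 0.36 ± 0.16 (SE; limma adjusted p = 0.999, unadjusted 0.0655; exact permutation p = 0.1).

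The anion exchangers of the Slc26 family that pair with sodium-proton exchange were level too. Slc26a3, known as DRA, differed by -0.19 ± 0.28 and Slc26a6, known as PAT1, by 0.26 ± 0.31 (SE), with both groups between 11.33 and 12.30. The other tested probe sets of Slc26a3 gave -0.17 and 0.08. The sulfate carrier gene Slc26a2 read 9.85, 10.20 and 11.17 in KO and 9.81, 10.17 and 10.67 in WT, a difference of 0.19 ± 0.40 (SE). Slc26a11, which encodes a sodium-independent sulfate carrier, was the largest positive difference among the 33. It read 4.42, 4.44 and 4.37 in KO and 3.39, 4.10 and 3.65 in WT, a difference of 0.70 ± 0.22 (SE; limma adjusted p = 0.999, unadjusted 0.0175; exact permutation p = 0.1). Its mean of 4.06 lies just above the filter, next to Slc2a8 (3.83) and Slc9a3r2 (3.79) just below it, and all WT arrays but WT 2 lay under 4. Slc26a11 thus entered the test through its KO arrays, and its difference is not free of that choice.

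Slc12a2, the NKCC1 carrier that loads crypt cells with chloride for secretion, read 11.65, 12.30 and 12.18 in KO and 12.76, 11.84 and 12.99 in WT. WT 1 and WT 3 lay above all mutants and WT 2 among them, with a difference of -0.49 ± 0.35 (SE; 95% interval -1.33 to 0.35; limma adjusted p = 0.999). Its other 2 probe sets gave -0.61 and -0.76, and the brightest gave -0.83 without WT 2 and -0.26 without WT 3. Y-linked signal as a covariate made its difference -0.999, and on the 4 arrays without that signal KO minus WT 3 was -0.94. WT 2 was the array with the lowest proliferation markers (median 0.82 below their mean) and crypt base markers (0.77 below), whose part in this value was not tested. Of the potassium-chloride carriers, Slc12a7 differed by -0.02 (0.57 on its other tested probe set). Slc12a8 and Slc12a9, members of the same family, differed by -0.08 and 0.26. Slc12a9 read 6.63, 6.71 and 6.57 in KO and 6.31, 6.32 and 6.50 in WT, without overlap (limma adjusted p = 0.999, unadjusted 0.152; exact permutation p = 0.1).

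Among the phosphate carriers, Slc34a2 was near background in 1 mutant mouse. Slc34a2, the intestinal sodium-phosphate carrier of the brush border, read 9.56 on KO 1, 3.93 on KO 2 and 9.62 on KO 3, and 8.75, 10.16 and 8.73 in WT. KO 2 stood alone, while the other mutants lay within the control range. The difference of -1.51 ± 1.52 (SE; limma adjusted p = 0.999) turned to 0.38 without KO 2. KO 2 is the array with Pdx1 signal. It had the lowest summed ileal signal (11.01, against 11.57 to 12.27 in WT and up to 12.04 in KO, with 3 of 4 genes above the filter). Its summed duodenal and gastric signal was 8.46, within the KO range of 8.28 to 8.66, but made up otherwise. On KO 2 Pdx1 read 7.5 and Cblif 7.07, while Cblif read 8.56 on KO 1 and 8.15 on KO 3, without Pdx1. Tff2 of that list read 4.44 on KO 2 and 2.69 to 3.16 elsewhere. Others of the list did not rise on KO 2 above the controls. Cybrd1 read 3.47 on KO 2, 3.02 and 3.13 on the other mutants and 4.56 to 4.91 in WT, and Gkn1 lay at background on KO 2 (2.43). S100g, which encodes a calcium-binding protein most abundant in the proximal intestine, read 10.22 on KO 2 and 6.10 to 7.36 elsewhere. The part of these in the Slc34a2 value was not tested.

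The widely expressed phosphate carrier genes Slc20a1 and Slc20a2 differed by -0.50 ± 0.37 and 0.13 ± 0.18 (SE). Slc20a1 read 7.33, 8.18 and 7.68 in KO and 7.71, 8.08 and 8.90 in WT. A dimmer probe set of Slc20a1 parted the groups, at 2.96, 3.91 and 4.67 in KO and 5.81, 4.87 and 5.89 in WT, a difference of -1.67 ± 0.49 (SE; limma adjusted p = 0.999, unadjusted 0.0119; exact permutation p = 0.1). That probe set entered the test through its WT arrays (mean 3.85 in KO and 5.52 in WT), so its difference and sign are not free of that choice. The brighter probe set, which stands for the gene here, gave -0.17 without WT 3 and -1.15 once Y-linked signal was a covariate. On the 4 arrays without that signal it gave -1.17, with WT 3 above all mutants, and both probe sets had the same sign.

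**Figure D3:**
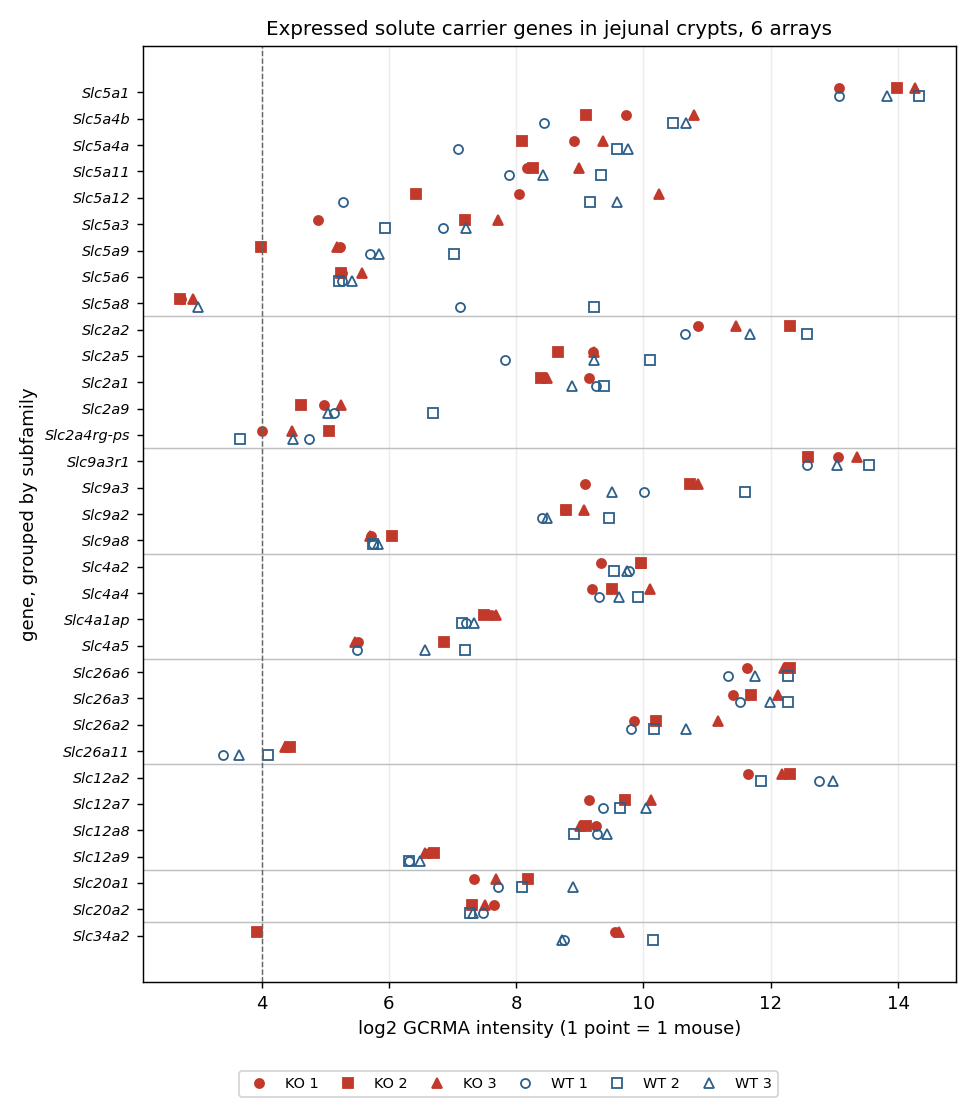
Log2 GCRMA intensity of the 33 expressed genes on each of the 6 arrays (filled red KO, open blue WT, 1 point per mouse, dashed line at the filter of 4), grouped by subfamily. Most genes show both groups across one range, with Slc34a2 on KO 2 (3.93) and Slc5a8 on WT 1 and WT 2 (7.11 and 9.23) far from the rest.

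The other 37 genes were under the filter, and 34 of them stayed within a range of 0.5 on all 6 arrays. They include all 3 sodium-calcium exchangers (Slc8a1, Slc8a2 and Slc8a3), the neuronal and muscle glucose carriers Slc2a3 and Slc2a4, the kidney carriers Slc5a2, Slc12a1, Slc12a3, Slc34a1 and Slc34a3, the red cell exchanger Slc4a1 and the chloride-iodide exchanger Slc26a4. Slc2a8, Slc2a10 and Slc9a3r2 were the 3 that passed 4 on any array, in each case on KO 1 (4.13, 4.40 and 4.32). By subfamily the expressed genes were 9 of 13 in Slc5a, 5 of 12 in Slc2a, 4 of 10 in Slc4a, 4 of 10 in Slc26a, 4 of 9 in Slc9a, 4 of 8 in Slc12a, 2 of 2 in Slc20a and 1 of 3 in Slc34a. A dim probe set can stand for a gene that is not transcribed or for a probe that binds poorly, and levels of different genes are not compared here.

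Partner genes of these carriers did not pass either. Of 43 expressed genes of ion transport and its control, 0 passed in limma (0.011% of all probe sets tested), 1 had an unadjusted p under 0.05 (3.62% of all), and 5 had groups that did not overlap (11.6%, against 9.12% of all). Their median difference was 0.12. Car12, a membrane carbonic anhydrase that supplies bicarbonate, had the smallest p. It read 6.00, 4.25 and 5.0 in KO and 7.77, 7.15 and 7.31 in WT, a difference of -2.33 ± 0.45 (SE; limma adjusted p = 0.474, unadjusted 0.00152; exact permutation p = 0.1). Fxyd5 (1.21), the carbonic anhydrase-related gene Car8 (-0.49) and the water channel gene Aqp8 (1.36, with 6.70 on KO 2) followed. Fxyd5 read 6.05, 4.684 and 5.24 in KO and 2.98, 4.672 and 4.681 in WT. Its groups thus parted by a very narrow margin between KO 2 and WT 3, and WT 1 lay under the filter. Aqp8, one of the 5, passed the filter only through KO 1 (4.58) and KO 2. KO 3 read 3.79 and WT arrays 3.56 to 3.71, so its groups parted between values under the filter. Cftr, the chloride channel of crypt secretion, read 9.91, 11.09 and 11.15 in KO and 10.61, 10.55 and 11.01 in WT (difference -0.00 ± 0.37, SE).

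Of 16 expressed genes of sugar digestion and metabolism 0 passed in limma (0.011% of all), 2 had an unadjusted p under 0.05 (3.62% of all) and 2 had groups that did not overlap (12.5%, against 9.12% of all), with a median difference of -0.10. Those were the trehalase gene Treh, at 11.43 to 11.60 in KO and 10.32 to 10.95 in WT (difference 0.77, limma adjusted p = 0.999), and Pfkfb4, a regulator of glycolysis (0.52). The glucose-6-phosphatase gene G6pc differed by 0.30, the hexokinase gene Hk1 by -0.18 and Khk, which phosphorylates fructose, by -0.03 ± 0.26 (SE).

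The spread of these genes over the 6 arrays was wide. The highest and lowest of the 6 arrays differed by over 2-fold in 20 of the 33 genes (60.6%), against 41.5% of all probe sets tested, and by over 8-fold in 4, Slc5a8, Slc34a2, Slc5a12 and Slc5a9. The median range was 1.34 log2 units against 0.89 over all probe sets tested. The median size of the KO minus WT difference was 0.15 against 0.19, and the median SE of that difference 0.37 against 0.26. WT 1 was the lowest array for 13 of the 33 genes and the highest for 0, where 11.7% of all probe sets were lowest and 13.2% highest on it. WT 2 was highest for 14, where 16.4% of all probe sets were. The median deviation from each gene's mean was -0.28, -0.06 and 0.25 for the mutants in turn and -0.29, 0.44 and 0.09 for the controls. For the villus enterocyte list it was 0.14, -0.17 and 0.21 and -0.24, 0.15 and -0.08, so both lists had their lowest value on WT 1, while KO 1 was below the mean for the carriers and above it for the villus list. What part the share of villus cells had in these values was not tested.

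**Figure D4:**
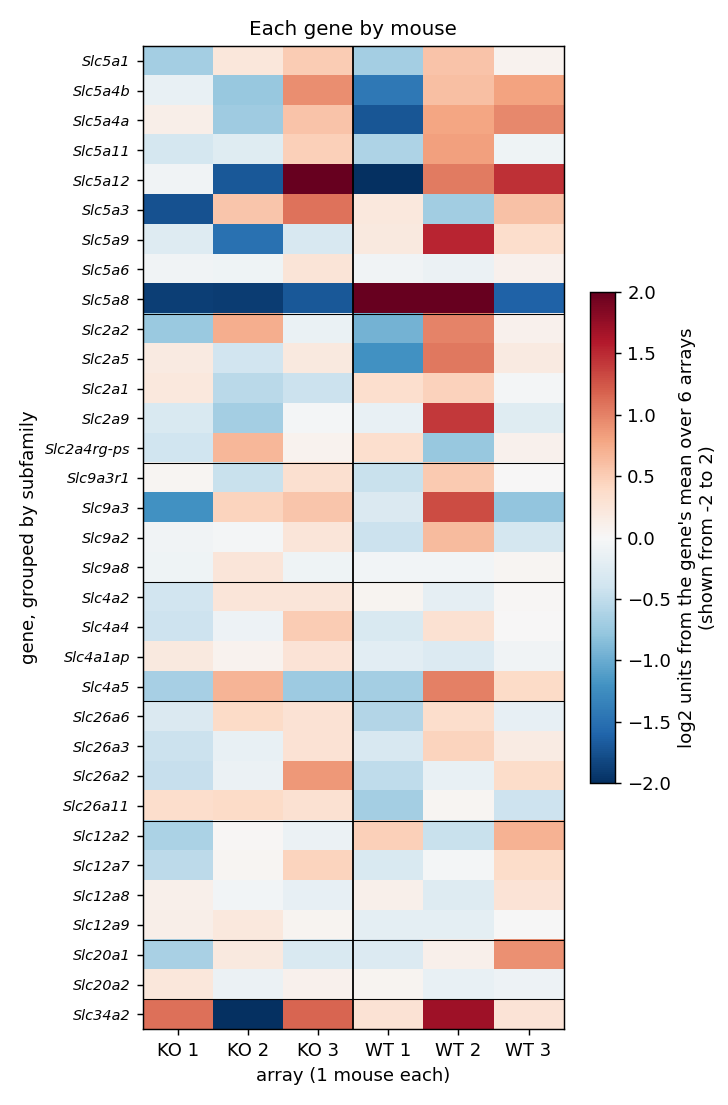
Deviation of each array from the gene's mean over the 6 arrays (log2 units, colour scale held at -2 to 2) for the 33 expressed genes, with KO mice left and WT mice right of the line. WT 1 is blue (low) and WT 2 red (high) for Slc5a1, Slc5a4a, Slc5a4b, Slc5a11, Slc5a12, Slc2a2 and Slc2a5.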

How the data were processed

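Per the submitters' processing notes, the authors made log2 intensities with GCRMA (background by probe base content, then joint normalization and 1 value per probe set). The notes also name limma, and the sources state no version or setting. GCRMA pulls dim probe sets toward a floor, so a probe set that crosses it shows a large step. Array controls (64 of 45101 probe sets) were left out. Symbols came from the platform annotation, and all 70 members matched RefSeq by gene identifier. Members and lists were chosen with earlier results of these data known.

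The group difference came from lmFit and eBayes of limma 3.58.1 (R 4.3.3, two-sided), run on the 18108 probe sets whose mean reached 4. p-values were adjusted by Benjamini-Hochberg over all of these, with a threshold of 0.05. An exact two-sided permutation of 3 mice against 3 cannot go below 0.1, so adjusted p-values come from limma. Arrays have no read depth, and their number limits the precision. The fit was tested on simulated data. The rule for named genes took members with groups that did not overlap, the 12 of smallest p, a fixed list of known carriers, the 5 of highest mean and those within 0.25 of the filter, and every other expressed member is named too. Also named were 4 partners of smallest p in each list, Cftr and Khk. Alternatives tried were quantile normalization, median centring, a filter at 6 or none, probe sets averaged by gene, 1 probe set per gene, the replicate number as a block, a trended robust prior and each array left out. Terms for Y-linked and for Gapdh signal were chosen after seeing the data.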

Additional observations from a re-analysis of the deposited data

How the results depend on the processing

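No carrier and no partner gene passed under any of the 16 alternatives, and over 428 refitted values of the 27 members listed for naming the lowest adjusted p in limma was 0.170 (Slc5a8 without WT 3). The count of members whose groups did not overlap was 2 with the filter at 6 and 6 to 8 with an array left out. Deviations of same-numbered arrays from their group means correlated at -0.05, -0.29 and 0.03. With 3 arrays per group this cannot settle whether same-numbered mice were littermates. The replicate block changed no call of a member. Probe sets called over the whole array numbered 2 as tested, 0 with the replicate block, 0 with no filter, 1 with the filter at 6, 4 with quantile normalization, 7 with probe sets averaged by gene, 0 with a term for Y-linked signal, 0 with a term for the Gapdh difference, and 0 to 16 with an array left out (16 without WT 3, 0 without WT 1 or WT 2). Of the 27 members, 14 turned sign somewhere. Quantile normalization gave Slc4a4 -0.022 and Slc5a4b -0.0089. The mean of probe sets gave Slc12a7 0.28, Slc4a4 -0.15 and Slc5a1 -0.10. The term for Y-linked signal gave Slc26a2 -0.25, Slc4a2 -0.014, Slc5a11 0.13, Slc5a4b -0.68, Slc9a3 0.78 and Slc9a3r1 0.017. The term for the Gapdh difference gave Slc12a7 0.039, Slc2a5 0.083, Slc4a4 -0.085, Slc5a1 -0.043, Slc5a4a 0.38 and Slc9a2 -0.058. With an array left out the ranges that crossed 0 were Slc12a7 -0.25 to 0.24, Slc2a2 -0.59 to 0.38, Slc5a11 -0.40 to 0.32, Slc9a3 -0.58 to 0.47, Slc2a5 -0.63 to 0.51, Slc34a2 -2.46 to 0.38, Slc4a2 -0.037 to 0.28, Slc5a1 -0.29 to 0.39, Slc5a4a -0.88 to 0.46, Slc9a3r1 -0.29 to 0.19, Slc26a2 -0.20 to 0.47, Slc4a4 -0.25 to 0.20, Slc5a4b -0.70 to 0.42 and Slc9a2 -0.10 to 0.43. The terms for Y-linked and Gapdh signal were chosen after seeing the data, and the Y-linked term leaves WT 3 as the only control without that signal. The cause of these turns was not tested.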
